A study of Mus musculus with 8 samples.

Results

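The 163 genes described here encode the proteins of 2 ribosomes, 85 of the cytosolic and 78 of the mitochondrial ribosome, out of 55401 genes in the deposited table. They were taken by symbol: protein-coding genes named Rpl or Rps with a number, Rplp0 to Rplp2 and Rpsa for the cytosolic ribosome, and Mrpl or Mrps with a number for the mitochondrial one. Kinases and binding proteins with similar names (Rps6k genes, Rps19bp1) and 7 matching names typed as pseudogenes were left out. The cytosolic members comprised 52 genes of the large and 33 of the small subunit, and the mitochondrial members 49 and 29.

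RNA sequencing was done on mouse lung at E13.5 (embryonic day) in 4 libraries from cre controls and 4 from mutants. The labels write the mutant genotype as Tbx4tetOcre with MyrfE6. They do not explain the MyrfE6 allele, which Cre elements the controls carry, or how many embryos, of which sex or litter, went into a library. P-values therefore measure the spread between these libraries, which may be partly technical. Tbx4 is a transcription factor of lung mesenchyme and Myrf a membrane-bound transcription factor, and the series title names the mesothelium, the cell layer that covers the lung, as its subject.

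A ribosome is built from ribosomal RNA and a large set of proteins, nearly all of which are present once per particle. Messenger RNAs of cytosolic ribosomal proteins are short and abundant, begin with a run of pyrimidines (the 5′ terminal oligopyrimidine, or TOP, motif) and are translated as a group in response to growth signals. Mitochondrial ribosomal proteins are encoded in the nucleus and imported, and their ribosome makes the core subunits of the respiratory chain from the mitochondrial genome.

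The start sites show how the 2 sets of genes differ in sequence. RefSeq promoters (GRCm38.p6, from 250 bases before to 50 bases after the annotated start) were at hand for 134 of the 163 members, among them 6 of the 8 cytosolic genes that fell in the mutant. For these 6, a 30-base window around the longest pyrimidine run near the start is shown 5′ to 3′ on the strand of the gene, with the run in capitals. In bases from the annotated start, the runs began at 27 (Rpl36a), 28 (Rpl37), 23 (Rpl37a), -2 (Rpl38), 40 (Rpl41) and -15 (Rps15a). Whether a run shown is the TOP motif of its messenger RNA was not tested. Rplp1 and Rps29 had no entry.
Rpl36a, chrX:134585672-134585701, plus strand: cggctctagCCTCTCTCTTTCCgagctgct
Rpl37, chr15:5116631-5116660, plus strand: ggcgggggtgCTTTCTCTTCCggtctcttt
Rpl37a, chr1:72711274-72711303, plus strand: cgcattgcgTCCCTTCCTCTTCggacttgg
Rpl38, chr11:114668568-114668597, plus strand: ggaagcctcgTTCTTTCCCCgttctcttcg
Rpl41, chr10:128549119-128549148, minus strand: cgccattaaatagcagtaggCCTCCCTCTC
Rps15a, chr7:118116143-118116172, minus strand: gcccggcccaCTCTCTTTCTgccatcttcc

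An uninterrupted run of at least 8 C or T within 50 bases of the start, on the strand of the gene, was found in 81.5% of the 65 cytosolic members with an entry. It was found in 34.8% of the 69 mitochondrial members and in 39.3% of all 27025 promoters. Among the cytosolic genes tested, the 51 with such a run had a median log2FC of -0.06 and the 11 without one a median of -0.02. The 2 ribosomes were alike in another motif, CGGAAG on either strand (the core bound by ETS factors), which was present in 66.2% of cytosolic, 56.5% of mitochondrial and 18.8% of all promoters. The letters GCATGCGC on either strand, the core bound by NRF1, a regulator of nuclear genes for mitochondria, were present in 4.62% of cytosolic, 11.6% of mitochondrial and 3.05% of all promoters. Mrpl32 and Mrpl39, mitochondrial genes with opposite signs of fold change in the results below, both held these letters, and Mrps22 held the ETS core. These windows are shown with the matched letters in capitals. A match describes the sequence and is not a measured binding site.
Mrpl32, chr13:14613104-14613133, minus strand: ttgacccttgcGCATGCGCaagaggggcct
Mrpl39, chr16:84735349-84735378, minus strand: aggagaggcgcGCATGCGCccccgcgtggc
Mrps22, chr9:98601675-98601704, minus strand: aaaaacctctcgagcCGGAAGttgctctat

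The values were raw counts per gene, with totals of 17799899 to 48679134 per library. Below, a level in a library is given in CPM, counts per 1000000 counts after scaling by trimmed means (TMM), and log2FC is the log2 fold change of mutant over control with its standard error (SE). Of all 15788 genes with enough counts to test, 236 (1.49%) changed at an adjusted p below 0.05, 147 lower (0.931%) and 89 higher (0.564%), in edgeR's quasi-likelihood test with Benjamini-Hochberg adjustment. Lung epithelial and mesenchymal markers were present in both groups, for example Nkx2-1 at 175 ± 12.3 CPM in controls and 188 ± 7.92 CPM in mutants and Tbx4 at 272 ± 5.99 and 262 ± 5.93 CPM (SD, n = 4). Of the 6 epithelial markers 0 passed the test by edgeR, DESeq2 or limma-voom, with 2 at an unadjusted p below 0.05 in edgeR. Of the 6 mesenchymal markers Wnt2 fell (log2FC -0.33, adjusted p = 0.00852 in edgeR), and in Tbx4, without a call, every mutant library was below every control. Of these 6, 4 had a log2FC below 0 and 2 above it, Col1a1 (0.17) and Tcf21 (0.06), both without a call. They summed to 2670 to 3379 CPM in controls and 2796 to 3520 in mutants, most of it Col1a1 (means of 2120 and 2382 CPM). The libraries differed in their sex-linked RNA: control replicates 2 and 3 had 869 and 863 CPM of Xist with 0 and 0.0562 CPM of 4 Y-linked genes, mutant replicates 1 and 2 had 0.596 and 0.370 CPM of Xist with 134 and 144 CPM of the Y-linked genes, and the other 4 libraries held both. Of the 6 mesothelial markers, 3 fell (Wt1, Upk3b and Lrrn4), and the summed level of the 6 was 164 to 176 CPM in controls and 120 to 138 in mutants. In all, 4 of them had a log2FC below 0 and 2 above it, Krt19 (0.08) and Msln (0.19), both without a call. Upk3b was the largest part of the sum, with means of 88.4 CPM in controls and 57.0 in mutants. The 5 neuronal and crest markers summed to 20.5 to 23.1 CPM in controls and 27.3 to 32.3 in mutants, and 1 of them, Ret, rose (log2FC 0.37, adjusted p = 0.0453 in edgeR). Of the 4 leukocyte markers Mrc1 fell (log2FC -0.29, adjusted p = 0.0334 in edgeR), with sums of 75.6 to 84.1 CPM in controls and 71.5 to 76.6 in mutants. Of the 4 endothelial markers Emcn rose (log2FC 0.19, adjusted p = 0.0479 in edgeR), with sums of 563 to 622 CPM in controls and 603 to 648 in mutants. The 5 heart muscle markers summed to 60.3 to 101 CPM in controls and 87.8 to 142 in mutants. All 5 had a log2FC above 0 (median 0.77), with 0 calls in edgeR and 1 higher in DESeq2. Of 8 erythroid and 6 cell cycle genes, 0 passed in edgeR. The part of sex composition or of these other cells in the results on ribosomal genes was not tested, except by the values given beside them. In whole lung, fewer cells of a type and less RNA per cell cannot be told apart.

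Cytosolic ribosomal protein genes were slightly lower in mutant lung. Those that passed the test all had under 450 coding bases, where the median of the cytosolic genes tested was 453. Of 82 tested, 8 fell and 0 rose, which is 9.76% against 0.931% of all genes called lower. The falls were small: Rps15a fell by 8.66% and Rps29 fell by 18.7%, with the other 6 between them. At an unadjusted p below 0.05 the count was 35, all of them lower, where 13.9% of all genes tested reached that p and 7.99% did so as lower. The median log2FC was -0.06 (quartiles -0.10 and -0.01), with 64 genes below 0 and 18 above, where the median of all genes was 6.5e-05. The 3 cytosolic members with too few counts to test were Rpl10l, Rpl39l and Rpl3l, paralogs of Rpl10, Rpl39 and Rpl3, with 0, 17 and 27 counts over all 8 libraries. Leaving out control replicate 1, or control replicate 3, left 0 of the 82 past the adjusted threshold, with 24 and 26 at an unadjusted p below 0.05, each of these lower, where 6.6% and 6.47% of all genes were lower and 4.78% and 5.4% higher at that p, and with Rpl38 lowest at adjusted p-values of 0.0528 and 0.0686 in edgeR. The count was 3 without mutant replicate 2, 2 without mutant replicate 3, 5 without control replicate 4 or mutant replicate 1, 9 without control replicate 2 and 10 without mutant replicate 4. The number called over all genes tested moved as well, from 236 in the main fit. It was 100 and 96 without control replicates 1 and 3, and 118 and 159 without mutant replicates 2 and 3. It was 313 without control replicate 4, 164 without mutant replicate 1, 121 without control replicate 2 and 479 without mutant replicate 4.

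**Figure D1:**
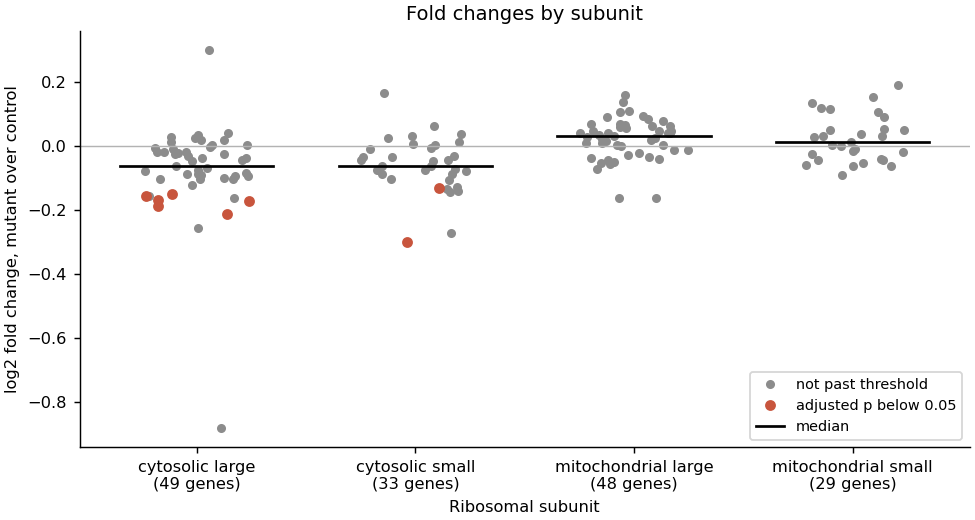
Log2 fold change of mutant over control (vertical axis) for each tested gene (1 point) of the 4 ribosomal subunits, with a black line at the median of each; red points passed an adjusted p of 0.05. The 8 red points are all cytosolic and below 0, and the low grey point is Rpl29 at -0.88.

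Of the large subunit, 6 genes of 49 fell. Rpl38, a surface protein whose loss in mice is known to alter the axial skeleton, had 222, 203, 218 and 212 CPM in the controls, listed here and below by replicate number from 1 to 4, and 188, 173, 185 and 194 CPM in the mutants. Every mutant library was below every control, with a log2FC of -0.21 (SE 0.041, adjusted p = 0.0140). Rpl37a, a zinc-binding protein, had 419, 387, 413 and 411 CPM in controls and 361, 359, 366 and 366 CPM in mutants. The mutants lay within a few CPM of each other and under the lowest control, control replicate 2, at a log2FC of -0.17 (SE 0.033, adjusted p = 0.0155). Rpl37, its neighbour in name and likewise a small zinc-binding protein, had 349, 333, 350 and 347 CPM in controls and 311, 302, 308 and 317 CPM in mutants. These groups did not overlap either, and the log2FC was -0.16 (SE 0.032, adjusted p = 0.0210).

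Rpl36a, an X-linked gene whose protein lies near the exit site for transfer RNA, had 326, 293, 322 and 320 CPM in controls and 274, 273, 274 and 286 CPM in mutants. Control replicate 2 was again the lowest control and mutant replicate 4 the highest mutant, without overlap (log2FC -0.19, SE 0.037, adjusted p = 0.0172). Rpl41 encodes the smallest ribosomal protein, from 75 coding bases, and had 729, 676, 703 and 739 CPM in controls against 641, 635, 645 and 646 CPM in mutants. Its log2FC was -0.15 (SE 0.033, adjusted p = 0.0275), and its mutant libraries were the closest together of the large-subunit genes that fell when set against their level. Rplp1, an acidic protein of the stalk that recruits elongation factors, had 1210, 1114, 1193 and 1171 CPM in controls and 1067, 950, 1063 and 1085 CPM in mutants. Mutant replicate 2 was the lowest, the groups did not overlap, and the log2FC was -0.17 (SE 0.040, adjusted p = 0.0429).

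Of the small subunit, 2 genes of 33 fell. Rps29, a small zinc-binding protein of the head of the subunit, had 519, 459, 528 and 520 CPM in controls and 417, 363, 428 and 440 CPM in mutants. Its lowest control, replicate 2, stood near its highest mutant, replicate 4, yet the groups were separate. The log2FC of -0.30 was the largest fall among the 8 (SE 0.063, adjusted p = 0.0473). Rps15a had 699, 657, 688 and 647 CPM in controls and 624, 609, 610 and 615 CPM in mutants, also without overlap. It was the closest of the 8 to the threshold (log2FC -0.13, SE 0.032, adjusted p = 0.0493), and its call was lost whenever a single library other than control replicate 4 was left out.

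**Figure D2:**
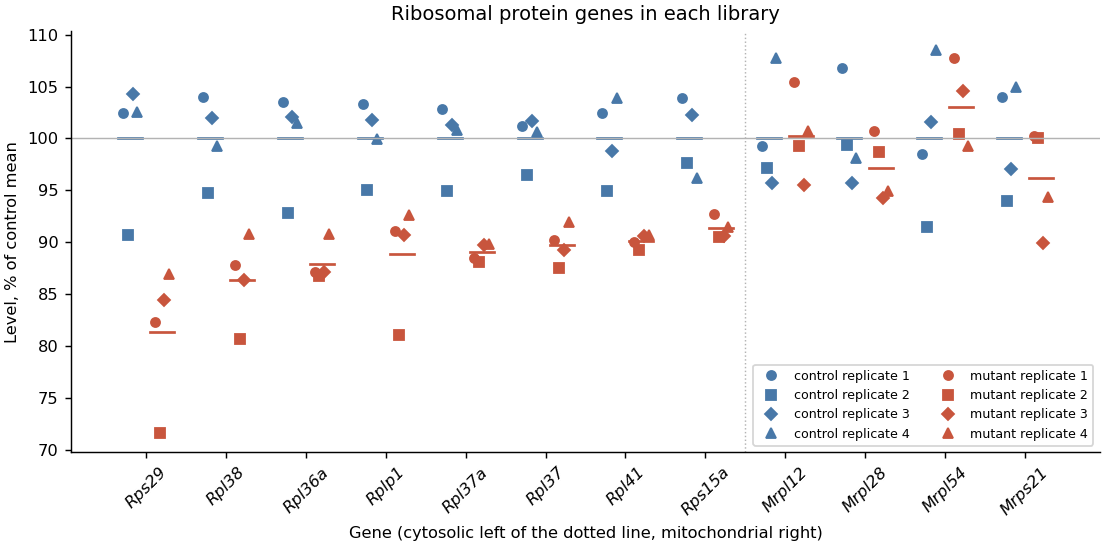
Level in each library as a percentage of the control mean (vertical axis) for the 8 cytosolic genes that fell and for the 4 mitochondrial genes Mrpl12, Mrpl28, Mrpl54 and Mrps21; blue marks controls, red marks mutants, the marker shape is the replicate number and a bar is the group mean. The red points lie under all blue points in each of the 8 genes and among the blue points in each of the 4.

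Several genes lay just outside the threshold. Rpl36 (adjusted p = 0.0526), the X-linked Rpl39 (0.0638), Rps27 (0.0641) and Rps28 (0.0695) had log2FC values of -0.16, -0.26, -0.13 and -0.27 in the same test. Rps28 had 366, 316, 342 and 330 CPM in controls and 283, 247, 285 and 308 CPM in mutants, separate groups and a larger difference than most of the genes that passed, but with an SE of 0.065. Rpl39 had 324, 276, 325 and 305 CPM in controls and 257, 233, 263 and 279 CPM in mutants, where mutant replicate 4 overlapped control replicate 2. In all, 19 cytosolic genes had every mutant library under every control and 0 had the reverse, where 4.06% and 3.31% of all genes tested did so.

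By the coordinates of the deposited table (GRCm38) the 8 genes that fell lay on 8 chromosomes: Rpl37a on chromosome 1, Rps15a on 7, Rplp1 on 9, Rpl41 on 10, Rpl38 on 11, Rps29 on 12, Rpl37 on 15 and Rpl36a on X. Of the X-linked members, Rpl10 (log2FC 0.02, adjusted p = 0.819 in edgeR) and Rps4x (0.03, adjusted p = 0.778) did not pass the test beside Rpl36a and Rpl39. Of the stalk proteins, Rplp0, the base of the stalk, had a log2FC of -0.02 (SE 0.029) and Rplp2, the partner of Rplp1, one of -0.10 (SE 0.078), and neither passed. Rplp2 had 661, 571, 637 and 627 CPM in controls and 624, 498, 588 and 624 CPM in mutants, so its groups overlapped while its lowest mutant library was replicate 2, as for Rplp1.

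All 8 had a coding sequence of under 450 bases. Cytosolic genes were divided by the coding length of their transcripts in GENCODE vM21, a property chosen after the fold changes had been seen. The 11 genes with under 300 coding bases had a median log2FC of -0.16 and held 5 of the 8 falls. These 11 included Rps27l and Rps27rt, copies related to Rps27 that did not pass the test (log2FC values -0.03 and 0.17). The 29 genes with 300 to under 450 coding bases had a median of -0.08 and the other 3 falls, the 19 with 450 to under 600 a median of -0.02 and 0 falls, and the 23 with 600 and over a median of -0.02 and 0 falls. The longest genes were near 0, as for Rpl4 (1257 coding bases), with 2030, 1988, 2018 and 1986 CPM in controls and 2040, 2076, 1943 and 1979 CPM in mutants and a log2FC of 0.00 (SE 0.028). Of the 23 genes with 600 coding bases and over, 13 had a log2FC below 0. Rpl3, with 1209 coding bases, lay further below 0 than the median of this class, at a log2FC of -0.16 that did not pass (SE 0.054, adjusted p = 0.212).

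Across the 82 cytosolic genes the Spearman correlation of log2FC with coding length was 0.55. It was 0.43 with the length of the principal messenger RNA and 0.27 with the exon length of the deposited table, which sums all annotated exons of a gene. These correlations run across genes of the same 8 libraries, so the genes are not independent replicates. Without the 11 shortest genes the correlation with coding length was 0.47 over 71 genes, and without the 8 that fell it was 0.44 over 74. When each library was left out in turn, it stayed between 0.50 and 0.60. The mitochondrial ribosome showed 0.13 for coding length over 77 genes, and 13693 other protein-coding genes -0.05. Only 3 mitochondrial genes had under 300 coding bases, so the 2 ribosomes could not be compared in the shortest class. In the class of 300 to under 450 bases the median of the 20 mitochondrial genes was 0.02.

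**Figure D3:**
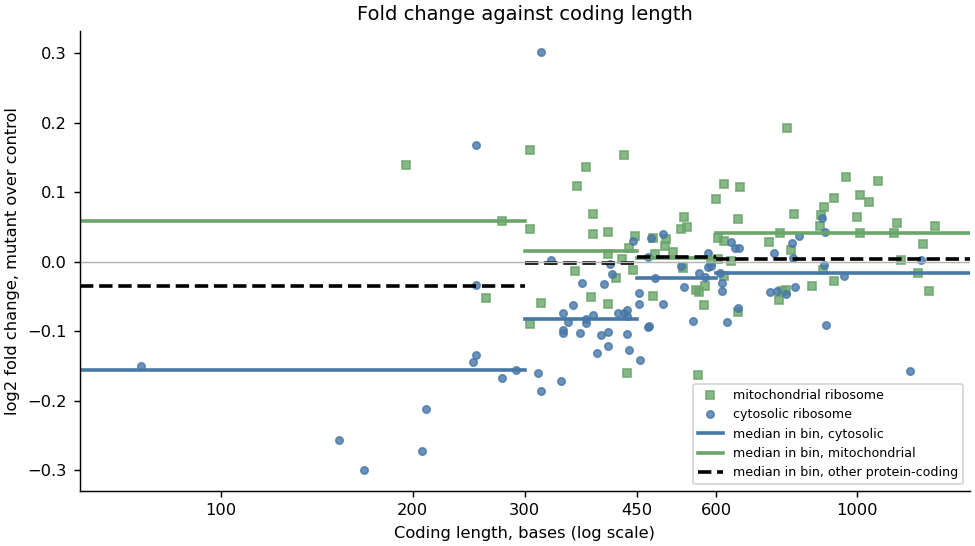
Log2 fold change of mutant over control against coding length in bases (log scale) for each cytosolic (blue circles) and mitochondrial (green squares) gene; horizontal lines are medians within 4 length classes for each ribosome and, dashed, for all other protein-coding genes. Rpl29, at -0.88, is outside the plotted range. The cytosolic median climbs from -0.16 under 300 bases to -0.02 at 600 bases and over; that of other protein-coding genes goes from -0.03 to 0.00, and that of the mitochondrial genes shows no such course.

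Other short genes showed a smaller difference of the same sign. The 262 other protein-coding genes with under 300 coding bases had a median log2FC of -0.03, with 5 lower and 3 higher calls, against 0.00 for the 12038 with 600 and over. An adjustment of each library for its trend with messenger RNA length left 1 of the cytosolic genes past the threshold, Rpl37, with a cytosolic median of -0.03 and a correlation with coding length of 0.30. The same adjustment on coding length left 5 (Rpl36a, Rpl37, Rpl37a, Rpl38 and Rps29), with a cytosolic median of -0.05 and a correlation with coding length of 0.43. Its trend was fitted over all genes tested and did not remove the relation within the cytosolic genes, so these 5 calls are not free of it. The adjustment on exon length left 4 (Rpl36a, Rpl37, Rpl37a and Rpl41). Over all genes tested, 286 passed with the adjustment on messenger RNA length, 249 on coding length and 291 on exon length. The main fit had 236. RNA quality and fragment lengths were not analysed here, so their part in the length pattern was not tested.

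By library, the pattern was present in some and not in others. For each cytosolic gene the deviation of a library from the gene's mean over the 8 libraries was set against coding length. Control replicates 1, 3 and 4 had correlations of -0.52, -0.53 and -0.54 across the 82 genes, and control replicate 2 had -0.05. Mutant replicates 1 and 2 had 0.48 and 0.53, and mutant replicates 3 and 4 had 0.12 and -0.01. Since deviations are taken from a mean over both groups, the signs of the 2 groups are not independent. In the class under 300 coding bases the median deviation was 0.12, 0.01, 0.10 and 0.10 on the log2 scale in controls and -0.08, -0.11, -0.07 and -0.01 in mutants. Every mutant library was thus below every control in that class, with control replicate 2 and mutant replicate 4 nearest to each other. In the class of 600 bases and over the values were 0.04, -0.01, 0.00 and 0.02 in controls and 0.02, 0.03, -0.05 and -0.04 in mutants, which overlapped. The other protein-coding genes with under 300 bases had 0.05, -0.03, 0.02 and 0.05 in controls and -0.01, -0.02, -0.03 and -0.01 in mutants, so they overlapped through control replicate 2.

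Other cytosolic genes of known role, with coding lengths from 357 bases (Rps20) to 891 bases (Rpl5), did not pass the test. Rpsa, which binds laminin as well as forming part of the small subunit, had 2347 ± 30.5 CPM in controls and 2338 ± 75.2 CPM in mutants (SD, n = 4). Rps6, the substrate of S6 kinase, had 579 ± 8.62 and 562 ± 8.97 CPM. Rpl5 and Rpl11, which bind MDM2 when ribosome assembly fails, had log2FC values of -0.09 (SE 0.030, adjusted p = 0.150 in edgeR) and -0.04 (SE 0.033, adjusted p = 0.696). Rpl5 had 800, 778, 824 and 786 CPM in controls and 750, 764, 743 and 737 CPM in mutants, separate groups without a call. Rps19, the gene most often mutated in Diamond-Blackfan anaemia, had a log2FC of -0.07 (adjusted p = 0.305 in edgeR), and Rps20 one of -0.06 (adjusted p = 0.435).

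No mitochondrial ribosomal protein gene passed the test: 0 of 77 by edgeR, 0 by DESeq2 and 0 by limma-voom. At an unadjusted p below 0.05 there were 2 lower and 2 higher in edgeR, beside 7.99% and 5.89% of all genes tested. The median log2FC was 0.03 (quartiles -0.02 and 0.06), with 27 genes below 0 and 50 above. The large and small subunits had medians of 0.03 and 0.01. In 1 gene, Mrpl24, every mutant library was below every control, with 78.3, 79.0, 79.2 and 80.0 CPM in controls and 75.4, 75.4, 74.1 and 76.1 CPM in mutants. That is a small difference in a gene with little spread (log2FC -0.07, SE 0.036, adjusted p = 0.388).

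The 4 mitochondrial genes with the smallest unadjusted p differed in direction. Mrpl32, a large-subunit protein processed in the matrix by an AAA protease, had 31.9, 26.9, 31.9 and 31.5 CPM in controls and 26.4, 26.8, 27.5 and 28.6 CPM in mutants. Control replicate 2 lay among the mutants (log2FC -0.16, SE 0.063, adjusted p = 0.233). Mrpl14 had a log2FC of -0.16 (SE 0.067, adjusted p = 0.284). On the other side, Mrps15 had 39.7, 40.5, 41.1 and 50.6 CPM in controls and 51.7, 52.0, 45.8 and 45.9 CPM in mutants. Control replicate 4 lay among the mutants (log2FC 0.19, SE 0.074, adjusted p = 0.255), and without that library Mrps15 passed at 0.28 (adjusted p = 0.0173 in edgeR). Mrpl39 had 47.0, 46.6, 48.8 and 46.1 CPM in controls and 50.9, 52.0, 49.5 and 48.7 CPM in mutants, with a log2FC of 0.10 (SE 0.044, adjusted p = 0.333). Mrps35, with 40.4 to 41.1 CPM in controls and 48.3, 46.9, 41.2 and 39.8 CPM in mutants, was high in mutant replicates 1 and 2 only (adjusted p = 0.364).

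Members known from inherited disease were among those that did not pass. Mrps22 and Mrps34, mutated in combined deficiencies of the respiratory chain, had log2FC values of 0.12 (SE 0.070) and 0.11 (SE 0.064), and Mrps16 one of -0.06 (SE 0.056). Mrpl3 had 69.0 ± 4.75 CPM in controls and 73.0 ± 3.83 CPM in mutants (SD, n = 4). Mrpl12, which also binds mitochondrial RNA polymerase, had 115 ± 6.17 and 115 ± 4.72 CPM.

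The summed levels set the 2 ribosomes against each other. The 85 cytosolic genes summed to 59167, 56179, 58105 and 58040 CPM in the controls and to 56970, 56420, 54871 and 55162 CPM in the mutants, in the order of their numbers, where control replicate 2 lay among the mutants. The 78 mitochondrial genes summed to 3469, 3346, 3379 and 3540 CPM in controls and 3577, 3537, 3371 and 3453 CPM in mutants, which overlapped. The ratio of the cytosolic to the mitochondrial sum was 17.1, 16.8, 17.2 and 16.4 in controls and 15.9, 15.9, 16.3 and 16.0 in mutants. All 4 mutant ratios lay under the lowest control ratio, that of control replicate 4, and no test was run on this ratio because the genes were chosen with earlier results known. Cytosolic genes held 5.50% to 5.89% of all counts and mitochondrial ones 0.333% to 0.361%.

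**Figure D4:**
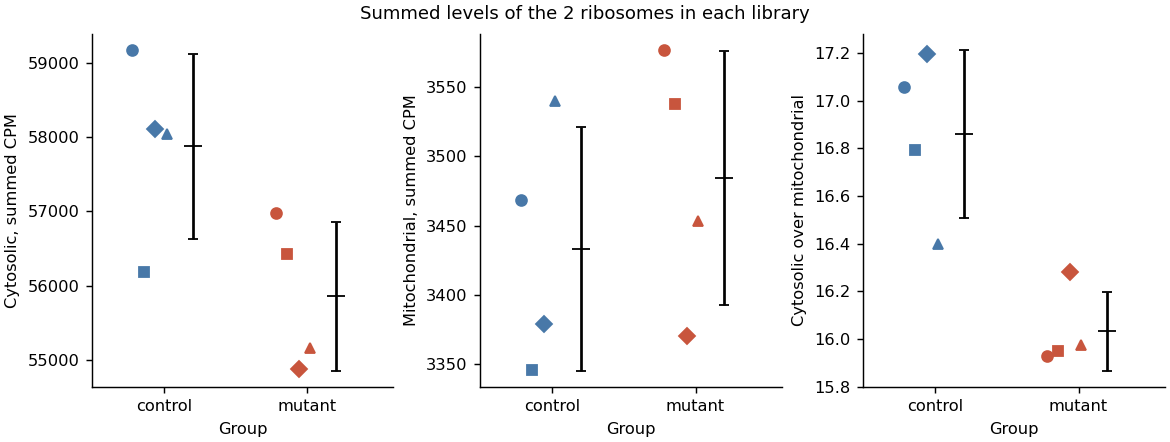
Summed CPM of the 85 cytosolic genes (left), of the 78 mitochondrial genes (middle) and their ratio (right) in each library, with axes that do not start at 0; marker shapes are replicate numbers as in the plot of single genes, and the black bars are mean ± SD of 4 libraries. The sums overlap between groups, and the 4 mutant ratios (15.9 to 16.3) lie under the 4 control ratios (16.4 to 17.2).

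Among the 4 libraries that held both Xist and Y-linked RNA, control replicates 1 and 4 and mutant replicates 3 and 4, the median log2FC was -0.10 for the cytosolic and -0.03 for the mitochondrial genes. In these 2 against 2 libraries only Rps29 passed (of 82 cytosolic genes, with 38 lower and 0 higher at an unadjusted p below 0.05, reached by 3.7% and 4.96% of all genes). With the Y-linked level as a covariate over all 8 libraries, 4 cytosolic genes passed (Rpl36a, Rpl37a, Rpl38 and Rpl41), and the medians were -0.09 and -0.02. Over all genes tested, 87 passed in the 4 libraries and 100 with the covariate. The mitochondrial median was thus below 0 in both of these settings and above 0 in the main fit, while the cytosolic median was below 0 in each. Both settings also changed more than sex composition, as libraries were left out or the covariate partly followed the groups. The part of sex composition in these signs therefore cannot be told apart.

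Levels within a ribosome were compared per kilobase of exon, since a longer gene yields more fragments. The exon length sums all annotated exons, so a gene with many exon bases outside its principal messenger RNA ranks lower here. The order by messenger RNA length is not given. The cytosolic genes had a median control level of 329 CPM per kilobase among those tested, and the mitochondrial genes 17.9. The highest was Rplp1 at 2349 ± 84.1 CPM per kilobase (SD, n = 4), followed by Rplp0 at 1243 ± 28.8, Rps15 at 1241 ± 42.1, Rps3a1 at 1036 ± 22.5 and Rpl4 at 999 ± 11.1. Rplp0 and Rps15 did not differ beyond their spread. Mrpl12 was the highest mitochondrial gene at 74.96 ± 4.03, ahead of Mrpl28 at 56.8 ± 2.70, Mrpl54 at 50.1 ± 3.54 and Mrpl34 at 49.9 ± 7.36, of which the last pair overlapped. In the small mitochondrial subunit Mrps21 led at 44.6 ± 2.38. Level per kilobase fell with exon length across both sets, with Spearman correlations of -0.43 for 82 cytosolic and -0.80 for 77 mitochondrial genes, as the exon length enters both quantities.

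Cytosolic genes also varied little between libraries. The median coefficient of variation was 3.48% in controls and 3.04% in mutants, against 5.61% and 4.53% for mitochondrial genes and 6.58% and 6.37% for all genes tested, a comparison in which the cytosolic genes also had the most counts. A few members did not follow. Rpl29, a heparin-binding protein, had 60.2, 50.6, 193 and 52.3 CPM in controls and 47.1, 42.8, 51.3 and 53.2 CPM in mutants. Its log2FC of -0.88 (SE 0.509, adjusted p = 0.526 in edgeR) rested on control replicate 3 and was -0.17 without that library (adjusted p = 0.436). Rpl35a had 259, 208, 349 and 342 CPM in controls and 319, 314, 281 and 245 CPM in mutants, a spread within each group larger than any difference between them. Rpl13 ranged from 674 to 892 CPM in controls and from 725 to 826 CPM in mutants.

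Some members with low values shared exon bases with another gene. Per the file headers, reads that matched exons of more than 1 gene on the same strand were not counted, and 9 ribosomal protein genes shared at least 15% of their exon bases with another gene. The 4 cytosolic ones had a median control level of 7.07 CPM per kilobase, where the 57 with no shared exon base had 328. Rpl24, the gene of the Belly spot and tail mouse, had 47.0% of its exon bases shared with Gm28037 and only 821 counts over all libraries, 4.45 CPM per kilobase. Rpl13a shared 35.4% with Gm45713 and had 40.6 CPM per kilobase, and Rps10 shared 20.6% with RPS10-NUDT3 and had 9.68. Rpl36al, the autosomal copy of Rpl36a, shared 24.5% and had 1.373, 1.409, 0.960 and 1.466 CPM in controls and 1.498, 1.701, 1.464 and 1.745 CPM in mutants, so its log2FC of 0.30, the highest of the cytosolic genes, rested on few counts (SE 0.205, adjusted p = 0.562). Among mitochondrial members Mrpl53 shared 88.0% and had 0 counts, and Mrps34 shared 37.0% with Nme3 and had 14.1 CPM per kilobase. The levels of these genes are therefore uncertain, while none of the 8 that fell shared an exon base.

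**Figure D5:**
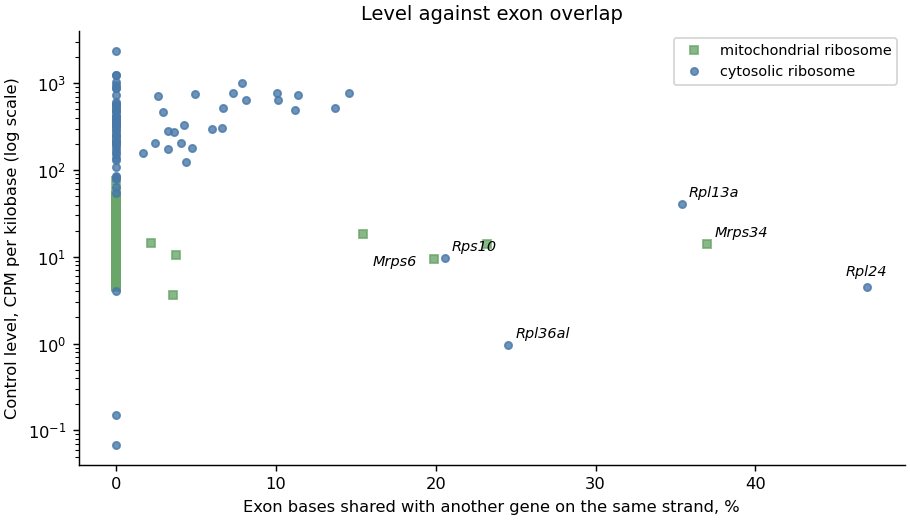
Control level in CPM per kilobase of exon (log scale) against the percentage of exon bases shared with another gene on the same strand, for each ribosomal protein gene with at least 1 count in controls. The 4 cytosolic genes with 15% or more shared lie between 0.962 and 40.6, under all cytosolic genes with a smaller shared part above 0.

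Near-identical copies are a second limit on the cytosolic values. The share of 75-base stretches in a gene's transcripts that also occur in transcripts of another gene had a median of 18.6% for cytosolic and 1.49% for mitochondrial members. It ranged from 3.35% (Rps15a) to 45.9% (Rplp1) in the 8 genes that fell and reached 90.3% in Rps27rt, a retrotransposed copy of Rps27 with 4.08 CPM per kilobase. Reads that fit several places were not counted, per the file headers. Of the paralogs with enough counts, Rpl22l1 had mean levels of 128 and 119 CPM (log2FC -0.10, adjusted p = 0.355 in edgeR) beside Rpl22 with 384 and 364 CPM, and Rpl7l1 had 189 ± 1.77 and 191 ± 5.30 CPM.

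Other genes of protein synthesis were counted from lists chosen with earlier results known. In the assembly of the cytosolic ribosome, 2 of 43 genes fell and 0 rose, where 0.931% of all genes tested were called lower. The median log2FC was 0.00, and 3 of the 43 had an unadjusted p below 0.05 in edgeR, beside 13.9% of all genes tested. Fbl, the methyltransferase of box C/D ribonucleoproteins, had 212, 204, 206 and 205 CPM in controls and 177, 171, 174 and 184 CPM in mutants. Every mutant library was below every control, at a log2FC of -0.23 (SE 0.034, adjusted p = 0.00185 in edgeR), and Fbl has 981 coding bases. Gar1, of the box H/ACA ribonucleoproteins that modify uridine, had 59.9, 59.2, 60.6 and 59.8 CPM in controls and 52.7, 47.7, 53.6 and 55.4 CPM in mutants. These groups were separate too (log2FC -0.20, SE 0.048, adjusted p = 0.0453). limma-voom called Fbl only. The call of Gar1 was lost whenever a single library other than mutant replicate 4 was left out, and that of Fbl in none of these 8 runs.

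Of 37 translation factors, 0 passed by edgeR, DESeq2 or limma-voom, with 4 at an unadjusted p below 0.05 and a median of 0.00. For this and the following lists, 13.9% of all genes tested had an unadjusted p below 0.05 in edgeR. Of 22 genes outside the ribosomal proteins whose messenger RNAs carry a TOP motif, 0 passed by any of the 3 tools, with 3 at an unadjusted p below 0.05 and a median of -0.02. The 30 genes of mitochondrial translation and ribosome assembly had 0 calls by any of the 3 tools, 0 at an unadjusted p below 0.05 and a median of 0.02. Among 45 nuclear genes of oxidative phosphorylation 1 fell and 0 rose, with a median of 0.01 and 7 at an unadjusted p below 0.05, close to that share. The gene that fell was Ndufa2, a complex I subunit of 297 coding bases, with 84.3, 78.6, 78.9 and 82.9 CPM in controls and 72.5, 70.9, 73.9 and 72.3 CPM in mutants (log2FC -0.17, SE 0.039, adjusted p = 0.0415). Its call, too, was lost whenever a single library other than mutant replicate 4 was left out. Genes of the p53 response to ribosome stress (11 tested) and of amino acid and translation stress (10 tested) had 0 calls by any of the 3 tools, with 2 and 1 at an unadjusted p below 0.05 in edgeR and medians of 0.03 and -0.01.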

How the data were processed

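The deposited values are unnormalized counts of read pairs, which the authors made per the file headers with featureCounts 1.6.4 on GENCODE vM25 (strand option 2). Alignment was to GRCm38 (mm10) with STAR, of unstated version, per the submitters' processing notes. Libraries were stranded and selected for messenger RNA, per the labels' protocols. The exon length is also the deposited one. Symbols were found for 55141 of 55401 genes. Gene types, coding and messenger RNA lengths and shared 75-base stretches came from GENCODE vM21, the same build. Exon overlaps were computed from the deposited exon coordinates.

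All 8 libraries entered 1 fit in edgeR 4.0.16 under R 4.3.3 (filterByExpr, TMM, robust quasi-likelihood F test, two-sided, no covariate), which kept 15788 genes holding 99.9% of the counts. Adjusted p is Benjamini-Hochberg over all of them. Alternatives used DESeq2 1.42.0 and limma 3.58.1. At the smallest total, 3 counts are 0.169 CPM, for counting error only. On simulated counts for this comparison (15788 genes, 3 simulations) the test recovered 0.667% of 1.1-fold, 64.0% of 1.25-fold, 79.3% of 1.5-fold and 94.7% of 2-fold changes, with 8.67% false calls. Libraries of the same group differed by 2.92 to 8.91 times the sampling variance, so none was a repeat deposit.

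The members, lists and rules were chosen with earlier results of these data known. Named genes are those past the threshold, in each subunit the 3 with the smallest p and the 3 with the highest level per kilobase, paralogs, X-linked, stalk and disease genes and the shortest and longest. Those chosen after their values were seen are Rpl36, Rps28, Rpl29, Rpl35a, Rpl13, Rpl13a, Rps10, Mrpl24, Mrpl53, Fbl, Gar1 and Ndufa2, as were the coding length classes.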

Additional observations from a re-analysis of the deposited data

Results flagged for a closer look

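In each group of 4 libraries, the highest or lowest value was compared with the rest by Dixon's test, for 128 tests over the named genes and the summed levels in both groups. A single library stood apart in 8 of them, where chance gives about 1 in 20, a share near that seen. Some of the genes, Rpl29 among them, were named after their values were seen, so the flag of Rpl29 was known beforehand. Control replicate 2 was low in Mrpl32, at 26.9 CPM against 31.5 to 31.9 in the other controls, and low in Rps29, at 459 CPM against 519 to 528. Control replicate 4 was high in Mrps15, at 50.6 CPM against 39.7 to 41.1. Control replicate 3 was high in Rpl29, at 193 CPM against 50.6 to 60.2. Control replicate 1 was high in Rps3a1, at 1045 CPM against 997 to 1003. Among mutants, replicate 4 was high in Rpl36a, at 286 CPM against 273 to 274, and replicate 2 low in Rplp1, at 950 CPM against 1063 to 1085. The ratio of cytosolic to mitochondrial sums was 16.3 in mutant replicate 3 against 15.9 to 16.0 in the other mutants.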

How the results depend on the processing

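Each of 22 alternatives was run, 3 of them chosen after the data were seen (adjustments for messenger RNA length and coding length, and the use of only the 4 libraries that held Xist as well as Y-linked RNA). No called result changed sign, and 20 of the 50 named genes without a call changed sign in at least 1 alternative while staying uncalled. Of all genes, 380 changed with DESeq2, 791 with no filter on low counts, 142 with non-robust estimation, 100 with the Y-linked covariate and 87 in the 4 libraries. It was 236 genes with library totals, 291 with exon length adjustment, 286 with messenger RNA length adjustment and 249 with coding length adjustment. With 1 library left out, the count lay between 96 (without control replicate 3) and 479 (without mutant replicate 4).

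The 8 cytosolic calls became 16 with DESeq2 and 5 with library totals, 5 with non-robust estimation, 4 with exon length adjustment, 4 with the Y-linked covariate, 1 with messenger RNA length adjustment, 5 with coding length adjustment and 1 in the 4 libraries. They were 0 without control replicate 1 or 3, 2 without mutant replicate 3, 3 without mutant replicate 2 and at most 10, without mutant replicate 4. Of the 8, DESeq2 kept 8, limma-voom 6 and the run without control replicate 2 kept 7. By gene the call was lost in 5 (Rpl37a), 6 (Rpl36a, Rpl37 and Rpl38), 9 (Rps29), 10 (Rpl41), 15 (Rplp1) and 18 (Rps15a) of the 22. Fbl lost it in 1, Gar1 in 12 and Ndufa2 in 14. The mitochondrial count of 0 became 1 (Mrps15) with no filter and ranged from 0 to 1 with 1 library left out, 1 being without control replicate 4.

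The cytosolic median log2 fold change was -0.027 with messenger RNA length adjustment and -0.095 in the 4 libraries, and the mitochondrial one -0.015 with the Y-linked covariate and -0.033 in the 4 libraries. The log2 ratio of summed levels was -0.05 for cytosolic and 0.02 for mitochondrial genes, and -0.091 and -0.039 in the 4 libraries. Exon length adjustment moved the correlation with exon length to -0.051 (cytosolic) and 0.029 (mitochondrial), which its construction sets, and messenger RNA length adjustment moved the cytosolic one to 0.050.

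Same-numbered libraries had correlated deviations of 0.0811, 0.0648, 0.181 and 0.0125, and mutant replicate 1 correlated best with control replicate 4 (0.133), so the numbers were not taken as pairs. With the replicate block, 541 genes changed in all and 16 of the cytosolic genes. With the replicate block and exon length adjustment together 563 genes changed, and the correlations with exon length were -0.047 and 0.026. The causes of these changes were not tested beyond what an alternative's construction sets. In the simulations 0.667% of 1.1-fold changes were recovered, among genes drawn from all those tested. Cytosolic genes had more counts and varied less between libraries, so this share does not give the recovery for them.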
